A study of Mus musculus with 4 samples.

Results

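ZFP57 bound the protein-coding 3′ exons of 8 genes that themselves encode zinc finger proteins. They are Zfp444, Zfp553 and Zfp629 on chromosome 7, Zfp11 and Zfp498 on chromosome 5, Zfp13 on chromosome 17, Zfp777 on chromosome 6 and Zfp275 on chromosome X. These genes held 10 of the 158 binding sites in the list, 3 of them in Zfp629 and 1 in each of the other genes. The 10 sites were chosen by their deposited annotation to a 3′ exon, which 22 sites carry, and by overlap of the site with the body of 1 of the 8 genes in GENCODE M1 on mm9. Sites had been selected on read density for the list: 141 of the 158 rank in the top 1% of candidate peaks by the mean of their percentile ranks in both crosses, and 13 of the other 17 carry the mark of binding by ChIP-qPCR. By the authors' account, candidates without a binding motif or on simple repeats were also left out. Densities, ranks, the annotation and the counts of motifs and repeats are therefore given as a description of sites chosen in this way.

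The sites come from chromatin of reciprocal hybrid mouse embryonic stem (ES) cells, precipitated with an antibody against endogenous ZFP57 and sequenced. The mother was C57BL/6J (BL6) and the father Cast/EiJ (Cast) for the BC line, and the parents were the other way round for the CB line. Both lines were grown without feeder cells in N2B27 medium with LIF and the kinase inhibitors PD0325901 and CHIR99021 (2i). Each cross was represented by 1 cell line with 1 ChIP library and 1 input library, 4 libraries in all, so no value below has a replicate and a test on reads compares those libraries, not the crosses as conditions. The input reads and DNA methylation at the sites were not analysed here.

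ZFP57 is a KRAB zinc finger protein that helps to keep DNA methylation at imprinting control regions through the reprogramming of the early embryo, and it recognises the motif TGCCGC when the cytosine of its CpG is methylated. C2H2 zinc finger proteins, the largest class of mammalian transcription factors, carry tandem fingers in which a pair of cysteines and a pair of histidines hold a zinc ion, and these arrays are often encoded by 1 long last exon. The codons of such fingers are alike from finger to finger, so a DNA word that spells a conserved part of a finger can recur many times in a gene and across the family.

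The sequences under the sites show where the motif lies. Each run below is the C2H2 finger over a motif, 1 for each site, from the first cysteine codon to the last histidine codon, 63 bases of mm9 read 5′ to 3′ on the coding strand. Capitals mark the motif, which reads TGCGGCA on this strand and TGCCGCA on the other. The genome strand and position follow the sequences.
Zfp11 finger 12: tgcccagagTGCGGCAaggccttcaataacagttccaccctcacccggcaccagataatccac
Zfp13 finger 6: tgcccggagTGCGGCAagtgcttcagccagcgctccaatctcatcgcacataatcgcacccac
Zfp275 finger 6: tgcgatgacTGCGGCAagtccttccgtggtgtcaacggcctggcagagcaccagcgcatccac
Zfp444 finger 3: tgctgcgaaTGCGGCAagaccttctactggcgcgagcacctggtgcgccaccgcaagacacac
Zfp498 finger 5: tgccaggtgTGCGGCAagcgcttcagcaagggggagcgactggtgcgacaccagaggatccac
Zfp553 finger 5: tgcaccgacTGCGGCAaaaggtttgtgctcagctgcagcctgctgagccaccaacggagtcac
Zfp629 finger 14: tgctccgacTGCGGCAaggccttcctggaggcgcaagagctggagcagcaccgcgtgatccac
Zfp629 finger 7: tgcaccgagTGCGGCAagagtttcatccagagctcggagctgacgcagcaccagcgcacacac
Zfp629 finger 2: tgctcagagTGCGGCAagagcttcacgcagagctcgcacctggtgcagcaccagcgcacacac
Zfp777 finger 7: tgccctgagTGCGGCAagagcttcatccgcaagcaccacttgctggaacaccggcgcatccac

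In mm9 these fingers lie at chr5:130163110-130163172 (minus strand) in Zfp11, chr17:23713279-23713341 (minus) in Zfp13, chrX:70599231-70599293 (plus) in Zfp275 and chr7:6141352-6141414 (plus) in Zfp444. The finger of Zfp498 lies at chr5:146051855-146051917 (plus), that of Zfp553 at chr7:134379530-134379592 (plus) and that of Zfp777 at chr6:47974808-47974870 (minus). In Zfp629, on the minus strand, finger 14 lies at chr7:134754545-134754607, finger 7 at chr7:134755133-134755195 and finger 2 at chr7:134755553-134755615. In every run the motif starts at the second cysteine codon and reads TGC for cysteine, GGC for glycine and the first base of a lysine codon.

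All 10 sites lay wholly in coding sequence of the last exon, and none touched untranslated sequence. The distance from a site to the last base of the stop codon ranged from 50 bp in Zfp777 to 2027 bp in the site of Zfp629 nearest to its start codon. The arrays counted 21 fingers in Zfp11, 19 in Zfp629, 12 in Zfp553, 11 in Zfp275, 9 in Zfp777, 8 in Zfp13, 6 in Zfp498 and 4 in Zfp444. A finger was taken as a pair of cysteines with 2 to 4 residues between them and a pair of histidines with 3 to 5 residues between them, the pairs 12 residues apart. Sites thus lay within 204 bp of the end of the coding sequence in the 4 genes with the fewest fingers, and farther into the array in the others.

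**Figure D1:**
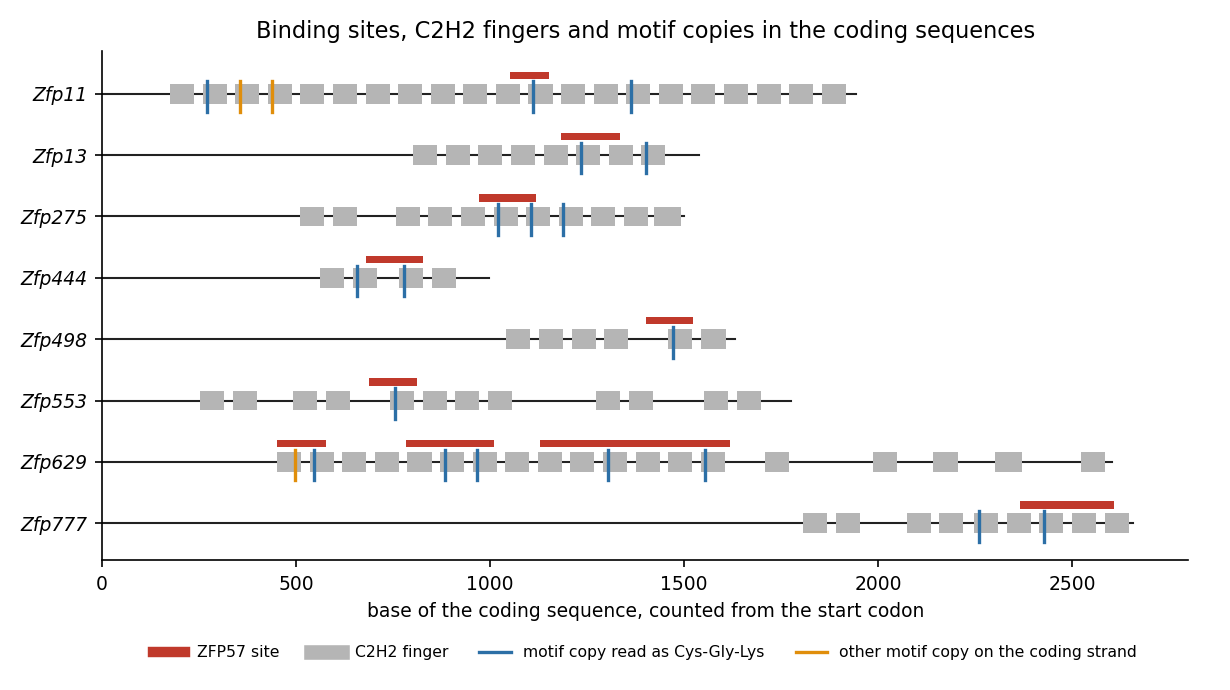
Coding sequences of the 8 genes, in bases from the start codon, with ZFP57 sites (red bars), C2H2 fingers (grey boxes) and copies of the motif on the coding strand (ticks). Each site covers at least 1 tick, 14 of the 22 ticks lie under a site, and 19 of the 22 read as cysteine, glycine and lysine codons.

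The sites held 16 TGCCGCN motifs in mm9 over both strands, of which 14 end in A and 2 in G, the same number as the deposited TGCCGCR count. Of these 16, 13 read as the codons for cysteine, glycine and lysine at the second cysteine of a finger, and each of the 10 sites had at least 1 of the 13. All 16 lay inside a finger, so the other 3 are part of a finger too, but at another place in it or in another reading phase. In Zfp629 finger 1 the motif is shifted by 1 base against the codons. In Zfp444 finger 2 and Zfp777 finger 6 the motif ends in G and lies near the histidines, and in Zfp777 it reads TGCCGCG on the coding strand. These 3 fingers are shown for contrast with the set above, with the motif again in capitals.
Zfp444 finger 2: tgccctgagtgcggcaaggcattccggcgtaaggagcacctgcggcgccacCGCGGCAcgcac
Zfp629 finger 1: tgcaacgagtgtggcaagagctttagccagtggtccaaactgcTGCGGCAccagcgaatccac
Zfp777 finger 6: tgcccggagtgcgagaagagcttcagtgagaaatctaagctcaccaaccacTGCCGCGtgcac

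They lie at chr7:6141232-6141294 (plus), chr7:134755637-134755699 (minus) and chr6:47974892-47974954 (minus). Zfp629 finger 1 reads tgtggca at its second cysteine, which is not a motif, and Zfp777 finger 6 has another residue than glycine there. Zfp444 finger 2 does hold a copy at its second cysteine, in lower case here because it starts before the site, 20 bp from the edge.

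In 3 of the 6 sites with 2 motifs, the spacing was a multiple of the finger repeat. In 67 of the 82 neighbouring finger pairs of the 8 genes (81.7%), the first cysteines were 84 bp or 28 codons apart. In Zfp275 and in the middle of the Zfp629 sites the motifs were 84 bp apart, on neighbouring fingers, and in the Zfp629 site farthest from the start codon they were 252 bp and 3 fingers apart. The other spacings, in the sites with 1 of the 3 motifs above that read otherwise, were 78 bp in Zfp444, 50 bp in Zfp629 and 42 bp in Zfp777.

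Distances from motifs to site centres are given as a description, since motifs were counted only inside sites and site length bounds the distance. The median distance from a motif to the centre of its site was 29.2 bp over the 16 motifs, against 18.5 bp over the 212 motifs in the other 148 sites. It was 4 bp in Zfp553, 7.5 bp in Zfp498, 9.5 bp in Zfp11 and 25 bp in Zfp13, which have 1 motif each, and up to 182 bp in the 491 bp site of Zfp629.

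The same reading was then counted over every coding gene. Among 22359 genes with a coding transcript, 630 encode at least 3 C2H2 fingers, and 137 of these hold TGCGGCA in their longest coding sequence, with 217 copies in all. Of these copies 178 (82.0%) start at the first base of a codon and 157 (72.4%) read as cysteine, glycine and lysine. In the 21729 genes with fewer than 3 fingers, 324 of 1647 copies (19.7%) start at the first base of a codon and 51 (3.10%) read as these residues. The 8 genes, chosen because they were bound, held 22 copies, 21 at the first base of a codon and 19 with these residues.

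**Figure D2:**
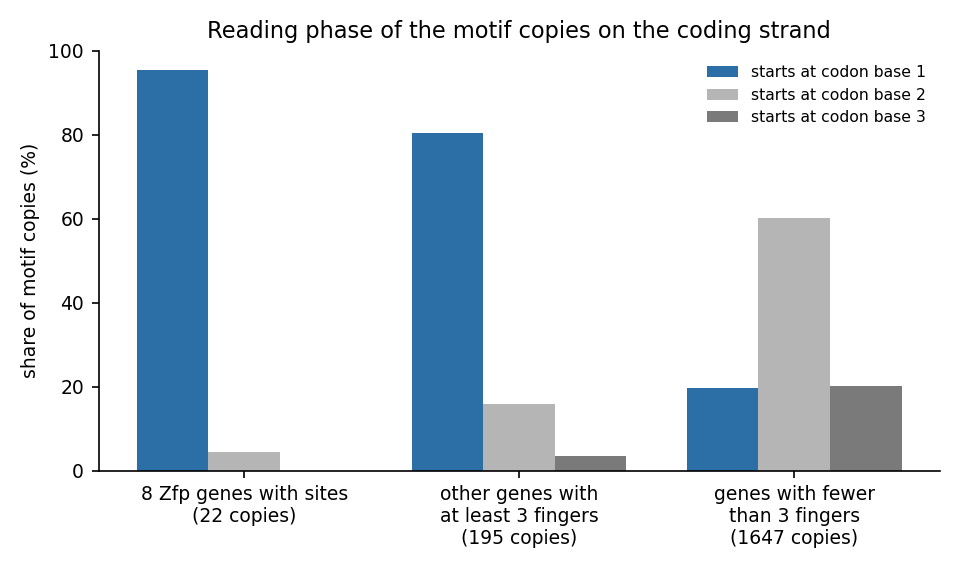
Share of motif copies on the coding strand (y axis, percent) that start at codon base 1, 2 or 3, in the 8 Zfp genes with sites, the other genes with at least 3 C2H2 fingers and the genes with fewer. The copies start at codon base 1 in 95.5%, 80.5% and 19.7%, respectively.

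The spelling of these codons is given for the 8 genes beside the rest of the family, and the presence of a motif in each of the 8 partly fixes it. Cysteine, glycine and lysine follow one another at the second cysteine in 60 of their 90 fingers (66.7%) and in 3067 of 5900 fingers (52.0%) of the other genes with at least 3 fingers. In the 8 genes, 24 of the 60 have TGC for the cysteine and 47 (78.3%) have GGC for the glycine. In the other genes 331 (10.8%) have TGC and 772 (25.2%) have GGC. The whole motif was spelled in 19 of the 60 fingers (31.7%) and in 135 of the 3067 (4.40%). Copies of the motif thus numbered 150 per 100 kb of coding sequence in the 8 genes and 16 per 100 kb in the other genes of the family.

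**Figure D3:**
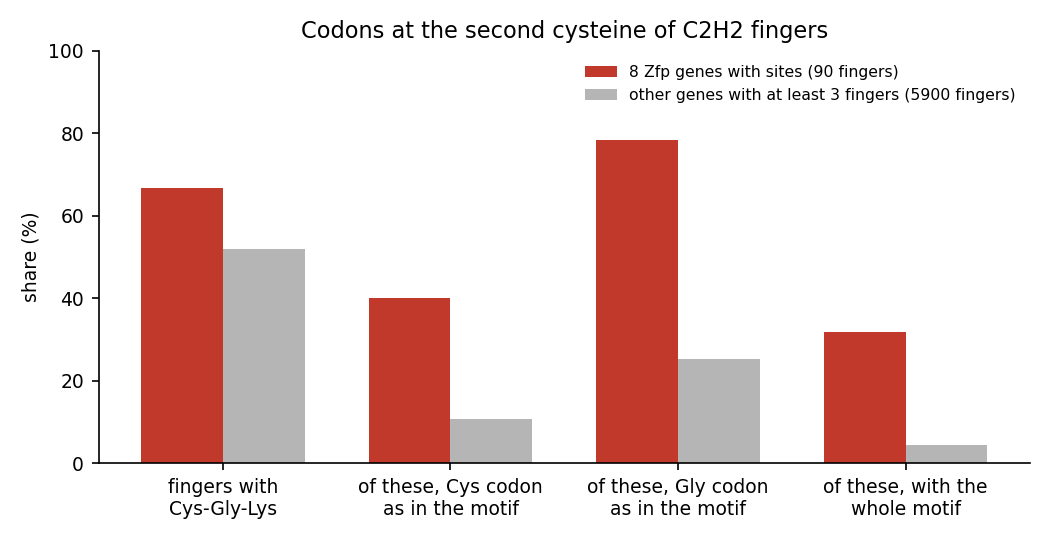
Codons at the second cysteine of C2H2 fingers in the 8 Zfp genes with sites (red) and in the other genes with at least 3 fingers (grey), in percent of fingers for the first pair of bars and of fingers with cysteine, glycine and lysine for the others. The whole motif is spelled in 31.7% and 4.40%.

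Most genes with a copy of the motif had no listed site there. Of the 137 genes with at least 3 fingers and a copy of the motif, 127 had no copy in a site, and of the 45 with at least 2 copies 38 had none. Zfp316, with 7 copies, the highest number, and Zfp865, with 6 like Zfp629, were not in the list, and both are named after their values were seen. At the other end, of the 92 genes with 1 copy, 3 had a site there, Zfp498, Zfp553 and, outside the 8 genes, Rreb1, and 89 had no listed site at it. Absence from a list chosen by rank was not tested as absence of binding. The remaining 493 genes with at least 3 fingers have no copy in their coding sequence.

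Within the bound genes, 14 of the 22 copies lay inside a site and 8 outside. All 6 copies of Zfp629 were inside its 3 sites. Of the 8 outside, 3 were within 100 bp of a site: 20 bp in Zfp444, 64 bp in Zfp13 and 68 bp in Zfp275. A copy in Zfp777 was 103 bp away. The other 4 were in Zfp11, 208, 609, 693 and 777 bp from its single site, so in this gene 1 of 5 copies lay in a site.

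The surroundings of copies inside and outside sites were compared by their CpG dinucleotides and by whether words of read length are unique there. Copies were taken that read as cysteine, glycine and lysine at the second cysteine of a finger, in genes with at least 3 fingers. The 13 in the sites had a median of 13.0 CpG within 100 bp, with a range of 5 in Zfp11 to 24 in Zfp444. The 6 in the bound genes but outside their sites had a median of 11.5 and a range of 6 to 24. In Zfp11 the copy in the site had 5 CpG, and those outside it had 8 and 6. The 133 in other genes, outside all sites, had a median of 12 and a range of 1 to 36. All 34 words of 40 bases over each of the 13 copies occur once in mm9, as did those over 124 of the 133 other copies (93.2%). Exact words as long as a read were thus unique at nearly all copies, inside and outside sites, and all 1499 such words in the 10 sites occur once. Words with mismatches were not searched.

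Base composition of the sites was near that of the list. The 10 sites had a median of 7.28 CpG per 100 bp and 63.6% G and C, against 6.20 CpG and 61.6% over all 158 sites. The value was highest in Zfp444, with 12.8 CpG per 100 bp, and lowest in Zfp11, with 4.90. None of the 10 sites carried a repeat in the deposited annotation, and neither did any of the 12 other 3′ exon sites; the 45 sites with a repeat all lay outside 3′ exons.

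The deposited motif counts differed between the zinc finger gene sites and the other 3′ exon sites. All 10 held a TGCCGCR, 6 of them 2, for 16 TGCCGCR and 0 TGCCGCY. Of the 12 other 3′ exon sites 5 held a TGCCGCR, 1 of them at least 2, and 7 held none. Over the whole list 116 of the 154 sites with a count (75.3%) held one, and 48 held at least 2. Where the list gives a count for each strain, that of BL6 was taken, and in Tmem86a the 0 of BL6 stands beside a count of 1 in Cast. The authors state that candidates without a motif were left out, which may have raised these shares, yet the list holds sites with none: 6 of the 12 other 3′ exon sites have a TGCCGCN in mm9 and 6 do not. Median length was 148 bp in the 10 sites, 125 bp in the other 3′ exon sites and 123.5 bp over the list. The motif counts per site were not adjusted for length.

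Read density, the authors' score per length and aligned reads, varied widely among the 10 sites. The median was 156.5 in BC and 37.5 in CB, with ranges of 37 to 262 and 12 to 59. Over all 158 sites the median was 107 in BC and 38.5 in CB, and over the 12 other 3′ exon sites it was 95 and 24.5. Zfp11, Zfp275, Zfp444 and Zfp777 were below the list's median in BC, and the other 6 sites above it.

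Zfp13 (chr17:23713228-23713380) had the highest density of the 10 in BC, 262, the fifth highest of the list, and 31 in CB. Zfp629 had 3 sites within 1169 bp: 133 in BC and 23 in CB at chr7:134754532-134755022, 193 and 41 at chr7:134755140-134755368, and 248 and 59 at chr7:134755573-134755700. Density in Zfp629 thus rose toward the start of the finger array in both crosses, while site length fell in the same order, from 491 to 229 and 128 bp. The score is taken per length, so position and site length cannot be told apart here. Zfp498 (chr5:146051799-146051920) had 214 in BC and 58 in CB, and Zfp553 (chr7:134379476-134379600) had 180 and 50. The percentile ranks of Zfp498 were 99.97 in BC and 99.93 in CB, and those of Zfp553 were 99.94 and 99.89. Zfp275 (chrX:70599193-70599340) had 78 in BC and 34 in CB, ranking 114 and 93 of the 158 sites. The paper describes both lines as male, so this site has a single chromosome copy, unlike autosomal sites. An effect of copy number on density was not tested.

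Zfp777 (chr6:47974678-47974920) had the lowest density of the 10 in both crosses, 37 in BC and 12 in CB. Zfp444 (chr7:6141267-6141414) was next in CB with 13, and had 87 in BC. Zfp11 (chr5:130163119-130163220) was the sole site of the 10 with more signal in CB, 54 against 43 in BC. Over the whole list 5 of the 158 sites had more signal in CB, so lower density in CB was the rule for the list. The ratio of BC to CB had a median of 3.95 over the 10 sites and 2.79 over the list. It was lowest in Zfp11, at 0.796, the second lowest of the 158 sites, and highest in Zfp13, at 8.45, the fourth highest. The 8 genes thus span nearly the whole range of this ratio in the list, 0.556 to 10.6.

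**Figure D4:**
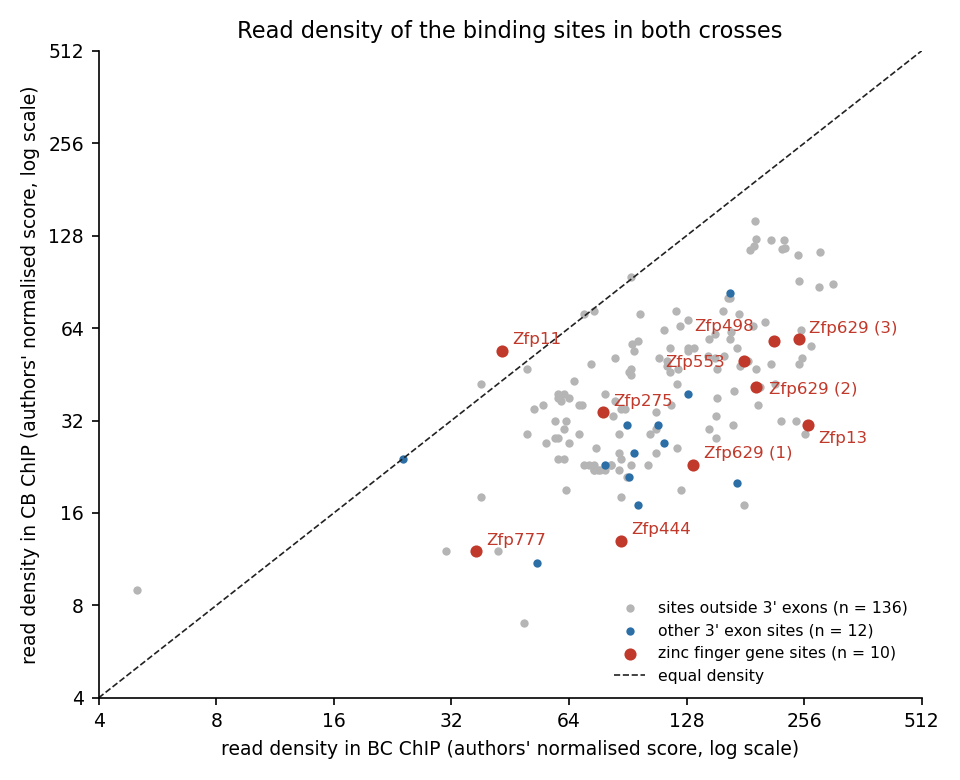
Read density of the 158 sites in BC (x axis) and CB (y axis), the authors' normalised score on log scales, with the 10 zinc finger gene sites in red and the 12 other 3′ exon sites in blue. All but Zfp11 among the red points lie below the line of equal density, and over the 158 sites 5 lie above it. Zfp629 sites are numbered by genome position.

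Of the 10 sites, 7 had a mean rank of 99 or above. The one nearest to that limit from above was the first Zfp629 site by genome position, at 99.4. Below it were Zfp11 at 98.5, Zfp444 at 97 and Zfp777 at 92.9, all 3 with the qPCR mark. Zfp13 and Zfp553 carried the mark as well, at 99.8 and 99.9.

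Strain origin could be read at 6 of the 10 sites, which held 584 allele-specific reads in BC and 135 in CB. The deposited list gives no SNP between the strains at Zfp275, Zfp498 and the middle Zfp629 site and records none as found at the last Zfp629 site. Strain origin was tested by setting maternal against paternal reads in both crosses, and parental origin by setting BL6 against Cast reads, each with a two-sided Fisher's exact test and a call at p under 0.0001. At this limit 1 of the 6 sites, Zfp553, was called strain-specific, where 27 of 116 sites of the list with reads (23.3%) passed the strain test. None of these 6 sites was called for parental origin, where 26 of the 116 sites (22.4%) passed at the same limit. The lowest unadjusted parental p of the 6 was 0.541, in Zfp13. The share of calls in this small set is no result about the genes. Intervals are 95% Wilson intervals and, like the tests, cover counting error only.

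Zfp553 was bound on the Cast chromosome in both crosses. In BC, 5 reads were from BL6 and 91 from Cast, a BL6 share of 5.21% (2.24 to 11.6%). In CB, 2 were from BL6 and 34 from Cast, a share of 5.56% (1.54 to 18.1%). Cast is the father's strain in BC and the mother's in CB, so the bound chromosome followed the strain. Over both crosses 94.7% of 132 reads were from Cast (89.5 to 97.4%; two-sided Fisher's exact p = 8.15e-24, Benjamini-Hochberg adjusted p = 1.05e-22 over 116 sites; parental p = 1.00).

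The sequence of both strains over the Zfp553 site was compared base by base. Sequences of BL6 and Cast for chr7:134379391-134379818 came from the supplement of the study, and the BL6 run equals mm9 at all 428 bases. The single motif is present in both strains and no base differs inside the 125 bp of the site, although the list gives 2 SNPs for it. All 3 differences lie beyond the end of the site, in the run shown next (chr7:134379601-134379748, plus strand, coding), with the differing bases in capitals.
Zfp553 BL6: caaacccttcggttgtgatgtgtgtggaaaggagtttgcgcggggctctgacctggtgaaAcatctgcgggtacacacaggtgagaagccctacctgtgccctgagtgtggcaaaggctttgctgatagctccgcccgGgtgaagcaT
Zfp553 Cast: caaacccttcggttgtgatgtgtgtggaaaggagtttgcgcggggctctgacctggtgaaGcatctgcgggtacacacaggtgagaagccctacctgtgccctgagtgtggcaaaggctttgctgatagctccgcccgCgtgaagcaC

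Counted from 1 at the first base after the site, with the BL6 base first, the differences are A61G, G139C and T148C. Each falls on the third base of a codon and leaves the encoded residue as it is. The nearest is 61 bp past the site, so a read of 40 bases that overlaps the site cannot reach it. Which SNPs gave the allele-specific reads of this site was not tested. Over the middle and last Zfp629 sites the strains were identical at all 675 bases of chr7:134755064-134755738, with 4 motifs in each.

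The sites whose BL6 shares in both crosses lay nearest to Zfp553, of 104 others with at least 10 reads in each cross, were in other kinds of genes. By the deposited annotation, the first lies in an exon of Atrn (chr2:130830639-130830801), with 9.09% in BC and 8.33% in CB, although the paper lists this site as intronic. The next lies in an intron of Ube2w (chr1:16590994-16591110), with 0 of 22 reads and 6.06%. The last lies in an intron of Sdk2 (chr11:113715254-113715370), with 9.92% and 14.5%. The distances from Zfp553 were 4.77, 5.23 and 10.1 percentage points. For 0 in 22 reads, the limit taken at 3 counts is a share of 13.6%, and the upper Wilson bound is 14.9%.

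Zfp11 leaned the same way without reaching the limit. BL6 gave 3 reads and Cast 13 in BC, and 6 and 21 in CB, so Cast supplied 79.1% of 43 reads (64.8 to 88.6%; two-sided Fisher's exact strain p = 3.16e-04). Its Benjamini-Hochberg adjusted p over the 116 sites was 0.00131, so it would count as strain-specific at an adjusted limit of 0.05. The same holds for other sites of the list with no call at p under 0.0001, so it is no result about this gene. The depth here was enough to call a complete bias: with all 43 reads from the same strain, so split between the crosses, the exact p is 3.77e-12. Whether it was enough for a bias of the size seen was not tested.

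Zfp13 and the first Zfp629 site had reads of both strains. In Zfp13, the deepest site of the set with 390 reads, BL6 gave 191 reads and Cast 150 in BC, and 25 and 24 in CB, a BL6 share of 55.4% (50.4 to 60.2%; exact strain p = 0.362; two-sided exact binomial p = 0.0377 against equal shares, unadjusted). The same binomial test gave p = 4.58e-29 in Zfp553, 1.70e-04 in Zfp11, 0.397 in the first Zfp629 site and 0.471 in Zfp444. At the first Zfp629 site these numbers were 41 and 35 in BC and 8 and 5 in CB, a share of 55.1% (44.7 to 65.0%; exact strain p = 0.375). Together with Zfp11, these are the 3 sites with at least 10 reads in each cross and no call, and the BL6 share over their 522 reads was 52.5% (48.2 to 56.7%). That value rests on Zfp13: without it, in a comparison added once the data had been seen, the share was 43.9%.

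Zfp444 and Zfp777 had fewer than 10 reads in CB and passed neither test, so they were classed as non-informative. In Zfp444, BL6 gave 18 reads and Cast 23 in BC, and 3 and 4 in CB, a BL6 share of 43.8% (30.7 to 57.7%; exact strain p = 0.687), although its reads could have given an exact p as low as 1.36e-08. In Zfp777 they gave 7 each in BC and 1 and 2 in CB, and the smallest exact p that its depth allows, 0.00147, is above the limit. A strain or parental bias at Zfp777 was not detectable at this depth.

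**Figure D5:**
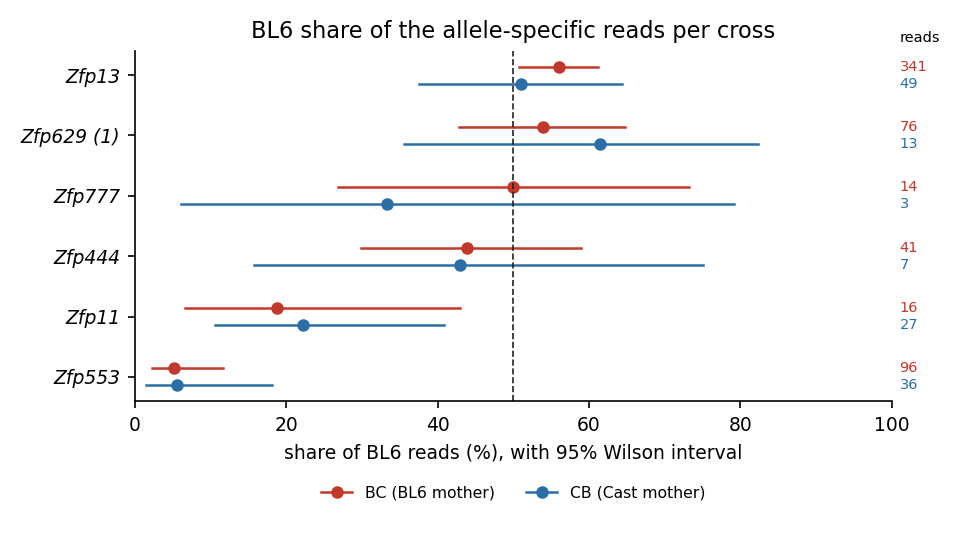
Share of BL6 reads (x axis, percent) at the 6 zinc finger gene sites with allele-specific reads in BC (red) and CB (blue), with 95% Wilson intervals and the number of reads at the right. Zfp553 lies at 5.21% and 5.56%, and the intervals of both crosses overlap at every site.

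Other genes with zinc fingers showed which features are shared more widely. Of the remaining genes with at least 3 fingers, 4 held 5 sites. The sites of Peg3 and Plagl1, both imprinted genes, lay at promoters or in an intron, with no coding base. Each was called for parental origin at p under 0.0001. The site of Rreb1, with 53 allele-specific reads in BC and 17 in CB, was not. The site of Sp6 had 8 and 2 such reads and was classed as non-informative. The two-sided Fisher's exact parental p was 5.36e-28 in Plagl1 and 4.56e-17 and 2.35e-15 in Peg3. Those of Sp6 (chr11:96883514-96883640) and Rreb1 (chr13:38040858-38040980) were annotated to a 3′ exon and lay wholly in coding sequence. Each of these held 1 TGCCGCN that reads as cysteine, glycine and lysine, in a finger in Sp6 and outside the finger pattern in Rreb1. Densities were 53 in BC and 11 in CB for Sp6 and 112 and 27 for Rreb1, within the range of the 10 sites except for Sp6 in CB, where their lowest value was 12. With them, 12 of the 22 sites of 3′ exons were in genes with at least 3 fingers.

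Other 3′ exon sites lay in Chst13, Ezr, Npas3, Olfr1344 (overlapping Gm16532), Rims4, Rtl1, Rtp2 and Tmem86a, none of which has a C2H2 finger, with 2 sites in Npas3. The 12 3′ exon sites outside the 8 genes held 7 TGCCGCN in mm9. The 5 outside Sp6 and Rreb1 read as other codons or lay outside coding sequence, among them the pair in Ezr. Coding sequence covered 10 of these 12 sites, so a place in coding sequence was common to most 3′ exon sites, and a motif read as cysteine, glycine and lysine was found in the sites of the 8 genes, Sp6 and Rreb1.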

How the data were processed

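The authors aligned reads with Bowtie to NCBIM37 (mm9), per the submitters' processing notes, called peaks per ChIP library with its input as background, and deposited 1 list. The allele-specific read counts per cross and strain are as the authors deposited them, without normalisation. The deposited read density is a score per peak length and aligned reads, rounded by the authors, and percentile ranks are scores too. Columns of the authors' own p-values and calls were not used. Two-sided Fisher's exact tests were run on all sites with reads. Motifs were counted on both strands of mm9, and codons, from the longest coding transcript, in GENCODE M1. The text names the 8 genes with all their sites, the genes of other 3′ exon sites (not all are reported here), other genes with at least 3 fingers and a site, and the 3 sites nearest to Zfp553. The members and lists were chosen with earlier results of these data known. Alternatives changed the p limit, adjustment, reads, minimum, annotation, flanks, transcript and finger pattern. The tests and motif search were tested on simulated data. Python 3.11.15, numpy 2.4.6, scipy 1.17.1, pysam 0.24.0, numba 0.67.0 and matplotlib 3.10.9 were used.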

Additional observations from a re-analysis of the deposited data

How the results depend on the processing

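Of 35 alternatives, 24 kept the call or left the value within 1.5 times the count or within the interval reported. The alternatives for median density were all counted as moved, although they too stayed within 1.5 times the reported value. Zfp553 was called strain-specific under every alternative run, and its exact p with read counts halved was 1.58e-12. Strain calls rose from 1 to 2, with Zfp11 added, at p under 0.01 and under Benjamini-Hochberg adjustment. Other sites of the list are added at these looser limits too, so the rise is no result about these genes. Sites with enough reads for a call fell from 4 to 2 with 20 reads required in each cross and with read counts halved, and were 5 with 5 reads required. The BL6 share over the biallelic sites, 52.5% in all, was 43.8% in CB alone and as an unweighted mean over sites, and 43.9% without Zfp13, all on the other side of 50%. The median density of 156.5 in BC moved to 133.5 with 1 site per gene and to 193 with sites of mean rank 99 or above, and that of 37.5 in CB to 42 and 41. With every gene of at least 3 fingers counted, the list held 12 sites in 3′ exons and 15 in any feature. All alternatives were run. No paired analysis was possible because each cross has 1 ChIP library.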
